A study of Mus musculus with 14 samples.

Results

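The genes described here are 10 genes of the melanocyte lineage and of pigment synthesis, chosen by name: Mitf, Sox10, Pmel, Tyr, Tyrp1, Dct, Mlana, Slc45a2, Oca2 and Gpr143. The choice was made with earlier results of these data known. Each gene was read from probe sets annotated to that single gene symbol. Where a gene had several probe sets the one with the highest mean was kept. All 10 were measured on both array designs of the study, among 22180 genes on the first design and 19938 on the second, and all 10 passed the filter on dim genes that left 16635 genes of the first design for testing. The tumours were grown in C57BL/6 mice from the pigmented mouse melanoma line B16-F10, and their total RNA was hybridised to Affymetrix whole-transcript arrays. The Res 499 and Res 177 sublines were recovered from unirradiated tumours that withstood or relapsed after radiation of the opposite flank (20 Gy on day 8) with a CTLA4-blocking antibody (days 5, 8 and 11), and the labels call them resistant. The control cells are called sensitive. The first design held 7 Res 499, 1 Res 177 and 4 control tumours, and the second held 1 Res 177 and 1 control tumour. Each resistant subline stands for itself alone, and the labels do not say whether the measured tumours had been treated, nor the age or sex of the mice. All tumours were melanomas grown in a living host, so host cells contributed RNA, and in such bulk samples fewer cells of a type and less RNA per cell cannot be told apart.

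Melanocytes make melanin inside melanosomes, which are organelles related to lysosomes. The transcription factor Mitf is known as the master regulator of this lineage: Sox10 activates its melanocyte promoter, together with cAMP signalling through CREB, and Mitf in turn activates the genes of the pigment enzymes and of melanosome proteins, often through an E-box variant called the M-box. In melanoma the same programme marks the differentiated state, and several of its products are antigens seen by T cells.

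Promoters of 5 of the 10 genes (Mitf, Tyr, Tyrp1, Dct and Oca2) were in the RefSeq table used (GRCm38.p6). The 3 windows below are shown because they carry elements through which Mitf and cAMP signalling are known to act, and they end at the base before the annotated start. Capitals mark matches, on either strand, to the M-box core TCATGTG in Tyr and Dct, and to the cAMP response element TGACGTCA in Mitf; the Mitf window lies before the most downstream of 3 annotated starts, the position of the known melanocyte promoter.
Tyr, chr7:87493513-87493762, minus strand: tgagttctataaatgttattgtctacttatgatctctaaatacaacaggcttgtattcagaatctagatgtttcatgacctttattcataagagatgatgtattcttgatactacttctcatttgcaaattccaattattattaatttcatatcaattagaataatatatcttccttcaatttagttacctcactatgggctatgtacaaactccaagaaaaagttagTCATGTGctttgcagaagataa
Dct, chr14:118052247-118052496, minus strand: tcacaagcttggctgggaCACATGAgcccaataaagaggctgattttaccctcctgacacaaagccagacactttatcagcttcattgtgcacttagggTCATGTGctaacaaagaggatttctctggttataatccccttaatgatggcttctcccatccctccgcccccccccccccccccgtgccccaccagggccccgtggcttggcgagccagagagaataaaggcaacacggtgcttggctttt
Mitf, most downstream start, chr6:97991533-97991782, plus strand: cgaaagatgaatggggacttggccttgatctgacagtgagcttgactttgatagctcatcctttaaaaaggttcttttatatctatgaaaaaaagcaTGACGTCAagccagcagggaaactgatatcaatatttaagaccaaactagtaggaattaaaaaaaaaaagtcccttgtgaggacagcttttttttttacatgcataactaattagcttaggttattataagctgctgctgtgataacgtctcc
The letters TCATGTG occurred in 3.25% of all 32851 promoters in windows of 250 bases, and TGACGTCA in 1.55%. The Dct window held TCATGTG on 2 occasions, of which 1 was on the opposite strand. The letters CATGTG, which lie inside TCATGTG, occurred in 12.3% of promoters, and TCACGTG in 3.13% and in none of the 3 windows. For Tyrp1, Oca2 and the most upstream Mitf start the searched windows were cut to 160, 84 and 194 bases. They stop where the annotated span of the gene begins, which lies upstream of the start used. The bases nearest to that start were therefore not searched. These cut windows held no TCATGTG, which says nothing of the bases left out, while the full windows of Tyr and Dct had a match. No Mitf window held TCATGTG. The windows of Mitf starts 1 and 2, counted from upstream, held no TGACGTCA either. The cut Oca2 window held CATGTG on the opposite strand. A match is a description of letters and not evidence of binding.

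Across the whole series, no 2 arrays of the first design held identical values, their medians lay between 5.70 and 5.80, and their correlations with each other ran from 0.977 to 0.993. The tumours differed in the level of markers of other cells. The leukocyte index, the mean log2 level of all 5 measured leukocyte markers (Ptprc, Cd53, Laptm5, Coro1a and Itgb2), ran from 6.23 to 8.23 in Res 499 tumours, was 7.52 in the Res 177 tumour and ran from 6.35 to 6.83 in control tumours. The mean of all 7 macrophage markers ran from 7.30 to 9.83 in Res 499, was 8.87 in Res 177 and ran from 7.47 to 8.08 in control tumours. Values are log2 expression after RMA, and differences are log2 fold changes from limma with their standard error (SE) and 95% interval.

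The pigment programme was present at high levels in every tumour and differed little between Res 499 and control tumours. In Res 499 tumours 7 of the 10 genes lay higher than in control tumours and 3 lay lower, with a median difference of 0.10, against a median of 0.01 and 51.7% positive differences over all 16635 genes tested. None of the 10 passed limma's test at an adjusted p of 0.05 over all genes, where 59 genes (0.355%) passed, 0.144% higher and 0.21% lower in Res 499 (smallest adjusted p among the 10 = 0.196). At an unadjusted p under 0.05 there were 4 of 10 (Sox10, Pmel, Slc45a2 and Gpr143), against 13% of all genes. The group ranges overlapped for each of the 10 genes, where 2.39% of all genes had ranges that did not overlap. The genes with the biggest differences were Gpr143 and Oca2, which lay higher in Res 499, and among those that lay lower it was Sox10.

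**Figure D1:**
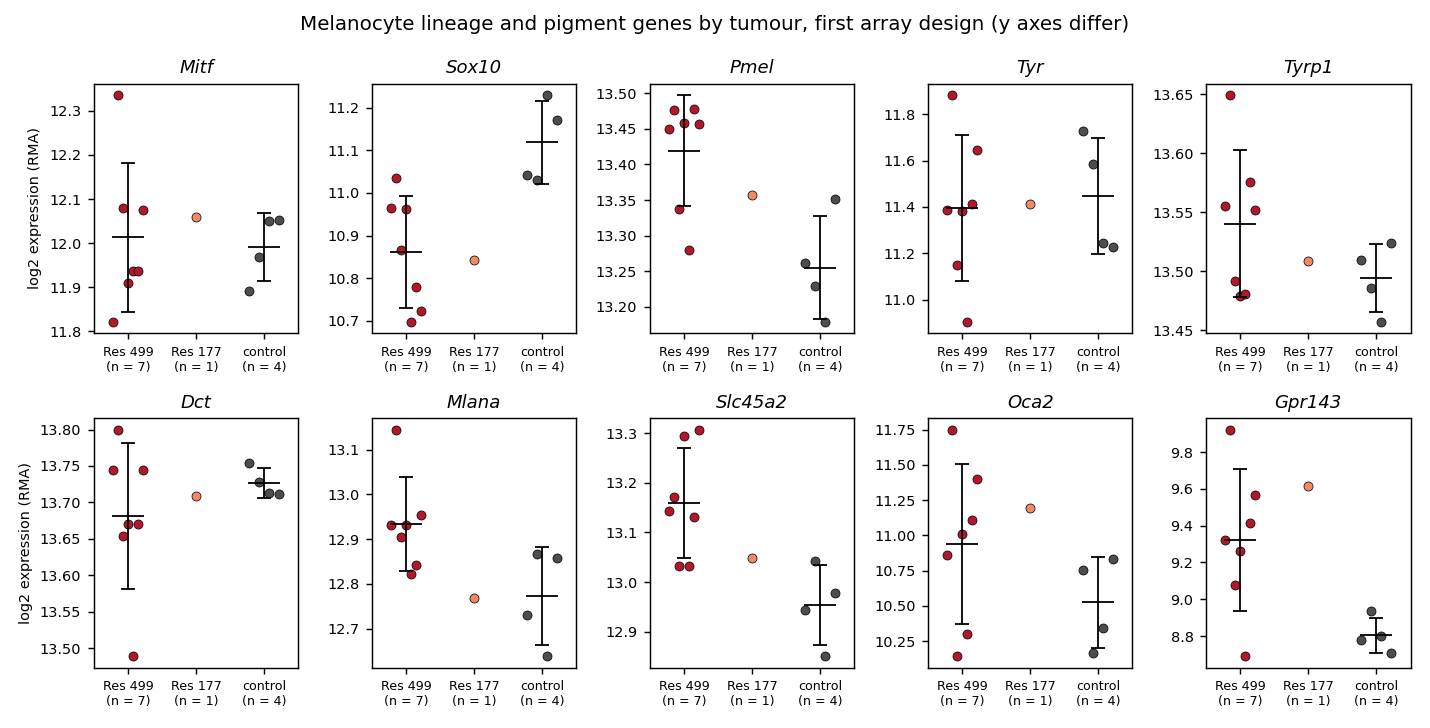
Log2 expression (RMA) of the 10 genes in each tumour of the first design, with 7 Res 499, 1 Res 177 and 4 control tumours from left to right in each panel; points are tumours, horizontal bars are means and whiskers are SDs, and the y axes differ. The separation is clearest for Sox10, where 6 of 7 Res 499 tumours lie below every control, and for Gpr143, where 6 of 7 lie above every control.

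Of the 2 transcription factors, Mitf lay on both sides of the controls and Sox10 mostly below them, and neither passed the test. Mitf had a lowest value of 11.82, a median of 11.94 and a highest value of 12.34 in Res 499 tumours, 12.06 in the Res 177 tumour, and 11.89, 11.97, 12.05 and 12.05 in control tumours. In Res 499, 3 tumours lay above every control and 1 below. The means were 12.01 ± 0.17 (SD, n = 7) in Res 499 and 11.99 ± 0.08 (SD, n = 4) in control tumours, a difference of 0.02 (SE 0.09, 95% interval -0.17 to 0.22, adjusted p = 0.944). Its sign turned to -0.02 with the leukocyte index as a covariate.

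Sox10 encodes the neural crest factor that keeps melanocytes in their lineage. Its levels had a lowest value of 10.70, a median of 10.87 and a highest value of 11.04 in Res 499 tumours, 10.84 in the Res 177 tumour, and 11.04, 11.03, 11.23 and 11.17 in control tumours. Of the Res 499 tumours 6 of 7 lay below every control, and replicate 2, at 11.04, lay within the control range. The difference was -0.26 (SE 0.08, 95% interval -0.43 to -0.08), a level 0.837 times that of control tumours, with an unadjusted p = 0.00737 and an adjusted p = 0.196 by limma. It ran from -0.32 to -0.22 over 22 other settings, and the adjusted p over them ran from 0.0939 to 0.478. Sox10 is also a gene of Schwann cells, of whose 7 markers 4 were measured (Mbp, Pmp22, Egr2 and S100b). Their mean level ran from 7.86 to 8.36 in Res 499 and from 7.88 to 8.01 in control tumours, with a median difference of 0.03, 2 of 4 positive and Pmp22 apart from the rest at 0.86 (SE 0.20, adjusted p = 0.0843), and their part in the Sox10 values was not tested.

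The 3 melanogenic enzymes, which form the tyrosinase family, showed no difference that passed the test. Tyr encodes tyrosinase, the rate-limiting enzyme of melanin synthesis. Tyr had a lowest value of 10.90, a median of 11.38 and a highest value of 11.88 in Res 499 tumours, 11.41 in the Res 177 tumour, and 11.73, 11.59, 11.24 and 11.23 in control tumours. In Res 499, 1 tumour lay above and 2 lay below every control, with a difference of -0.05 (SE 0.17, 95% interval -0.41 to 0.31, adjusted p = 0.934), which turned to 0.01 with the leukocyte index as a covariate. Tyrp1, a melanosomal enzyme that stabilises tyrosinase, had a lowest value of 13.48, a median of 13.55 and a highest value of 13.65 in Res 499 tumours, 13.51 in the Res 177 tumour, and 13.51, 13.49, 13.46 and 13.52 in control tumours. Its difference was 0.05 (SE 0.06, adjusted p = 0.792). Dct encodes dopachrome tautomerase, which shapes the brown-black pigment. It had a lowest value of 13.49, a median of 13.67 and a highest value of 13.80 in Res 499 tumours, 13.71 in the Res 177 tumour, and 13.75, 13.73, 13.71 and 13.71 in control tumours. Of the Res 499 tumours 4 lay below all controls and 1 above, and the difference was -0.04 (SE 0.07, adjusted p = 0.832). The spread of Dct was wider in Res 499, with an SD of 0.10 (n = 7), against 0.02 (n = 4) in control tumours.

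The 2 structural melanosome proteins and the pigment transporter Slc45a2 lay slightly higher in Res 499. Pmel forms the amyloid fibrils on which melanin is laid down. Pmel had a lowest value of 13.28, a median of 13.46 and a highest value of 13.48 in Res 499 tumours, 13.36 in the Res 177 tumour, and 13.26, 13.23, 13.18 and 13.35 in control tumours. Of the Res 499 tumours 5 of 7 lay above every control, and the difference was 0.16 (SE 0.06, 95% interval 0.03 to 0.30, adjusted p = 0.286). Mlana, also called MART-1, works with Pmel in early melanosomes. Mlana had a lowest value of 12.82, a median of 12.93 and a highest value of 13.14 in Res 499 tumours, 12.77 in the Res 177 tumour, and 12.73, 12.87, 12.64 and 12.86 in control tumours. Again 5 of 7 lay above every control, with a difference of 0.16 (SE 0.07, adjusted p = 0.389). Slc45a2, a melanosomal membrane transporter whose loss lightens coat colour, had a lowest value of 13.03, a median of 13.14 and a highest value of 13.31 in Res 499 tumours, 13.05 in the Res 177 tumour, and 12.94, 13.04, 12.85 and 12.98 in control tumours. The Res 499 replicates 3 and 5 lay inside the control range, the other 5 lay above it, and the difference was 0.20 (SE 0.07, 95% interval 0.05 to 0.36, adjusted p = 0.247).

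Oca2 and Gpr143 varied most between tumours. Oca2 encodes the melanosomal chloride channel that is lost in the pink-eyed dilution mouse. Oca2 had a lowest value of 10.14, a median of 11.01 and a highest value of 11.75 in Res 499 tumours, 11.20 in the Res 177 tumour, and 10.75, 10.17, 10.34 and 10.84 in control tumours. Of the Res 499 tumours 5 lay above every control and replicate 3 lay below every control, so that the difference of 0.41 (SE 0.27, a 95% interval that includes 0, adjusted p = 0.566) was small against its spread. Gpr143 encodes a receptor of the melanosome membrane that limits melanosome size and is mutated in ocular albinism. It had a lowest value of 8.69, a median of 9.32 and a highest value of 9.92 in Res 499 tumours, 9.61 in the Res 177 tumour, and 8.78, 8.93, 8.80 and 8.71 in control tumours. Of the Res 499 tumours 6 of 7 lay above every control, and replicate 5 lay below every control. The means were 9.32 ± 0.39 (SD, n = 7) in Res 499 and 8.81 ± 0.09 (SD, n = 4) in control tumours, a 1.43-fold difference (log2 0.52, SE 0.18, 95% interval 0.13 to 0.90, adjusted p = 0.232). Without Res 499 replicate 5 the difference was 0.62 (adjusted p = 0.0753), and without replicate 2 it was 0.42 (adjusted p = 0.192).

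The room left on the array scale differed between these genes. Dct, Tyrp1 and Pmel lay on average 0.44, 0.61 and 0.78 log2 units below the highest value on their arrays, whereas Gpr143 lay 4.96, Oca2 3.31, Sox10 3.19 and Tyr 2.72 below it. The part of the upper end of the scale in the small differences of the brightest genes was not tested.

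**Figure D2:**
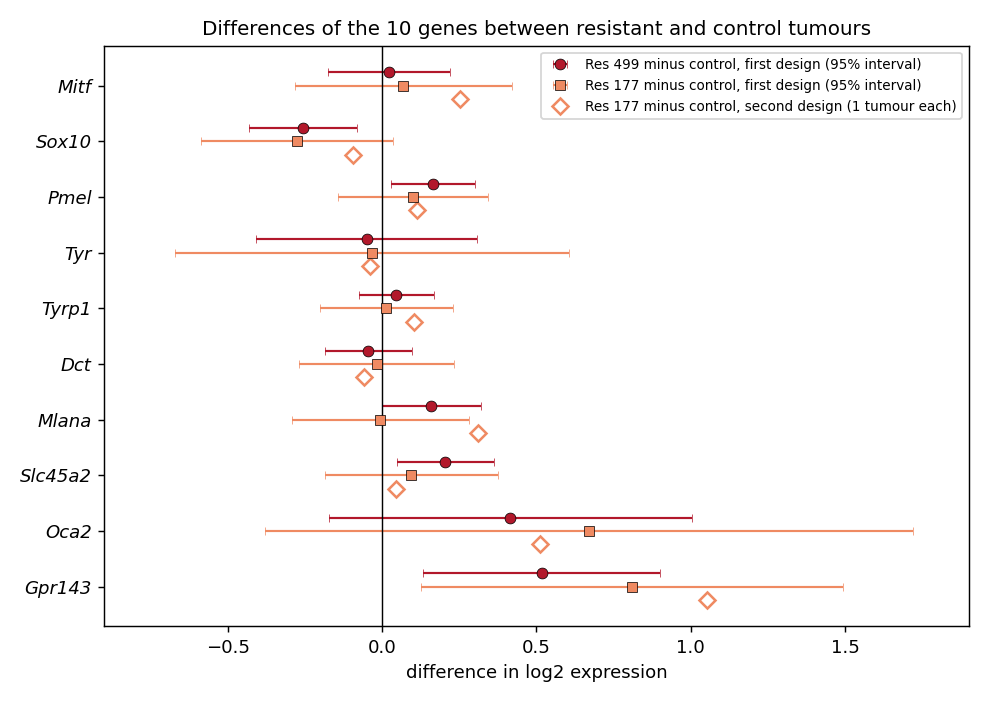
Difference in log2 expression for each of the 10 genes: Res 499 minus control (circles) and Res 177 minus control (squares) on the first design with 95% intervals from limma, and 1 Res 177 tumour minus 1 control tumour on the second design (open diamonds). Gpr143 has a positive difference in all 3 comparisons (0.52, 0.81 and 1.05) and Sox10 a negative one in all 3 (-0.26, -0.28 and -0.09).

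Taken as one resistant group (8 resistant against 4 sensitive tumours, with 7 of the 8 from Res 499), the sublines gave no call among the 10 genes, of which 7 had positive differences (52.4% of all genes did), where 102 genes (0.613%) passed by limma. At an unadjusted p under 0.05 there were 4 of the 10, against 13.4% of all genes. Sox10 differed by -0.26 (adjusted p = 0.146) and Gpr143 by 0.55 (adjusted p = 0.172). Gpr143 alone crossed the threshold in 2 of 22 other settings, without Res 499 replicate 5 (0.65, adjusted p = 0.0441) and with array weights (0.57, adjusted p = 0.0466), while over all settings its adjusted p ran from 0.0441 to 0.403. These tumours and controls are largely those of the Res 499 comparison, so the values are no separate support for it.

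Res 177 was measured in 1 tumour on each design. On the first design it is set against the same 4 control tumours as Res 499, so those values are not separate from the Res 499 comparison, and the second design has a control tumour of its own. On the first design none of the 10 passed limma's test in Res 177, where 35 genes (0.21%) did, all of them higher. Of the 10, 6 had positive differences, against 53.3% of all genes, and 1 (Gpr143) had an unadjusted p under 0.05, against 4.08% of all genes. This arm is 1 tumour whose spread is assumed to be that of the other groups. Gpr143 was at 9.61 in this tumour, above all 4 controls, a difference of 0.81 (SE 0.32, 95% interval 0.13 to 1.49, adjusted p = 1). Oca2 differed by 0.67 (SE 0.48, adjusted p = 1) and Sox10 by -0.28 (SE 0.14, adjusted p = 1). The other 7 genes had differences from -0.03 (Tyr) to 0.10 (Pmel).

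The second design held 1 tumour of each kind, so its differences have no replicate check and no test. Its levels are on a scale of their own. Gpr143 was at 10.72 in the Res 177 tumour and at 9.67 in the control tumour, a difference of 1.05 or 2.07-fold. Between these tumours the leukocyte markers averaged 8.03 in Res 177 and 6.87 in control (5 of 5 higher in Res 177) and the macrophage markers 8.84 in Res 177 and 7.51 in control (7 of 7 higher), and their part in the Gpr143 difference was not tested. Gpr143 was the only one of the 10 past 1 log2 unit, where 1.27% of 19938 genes were (0.928% higher in Res 177), and its absolute difference ranked at 218 of 19938. Oca2 was at 11.33 in the Res 177 tumour and at 10.82 in the control tumour (difference 0.51), and Mlana was at 13.24 in the Res 177 tumour and at 12.93 in the control tumour (difference 0.31). Mitf, at 13.02 in the Res 177 tumour and 12.77 in the control tumour, differed by 0.25, and by 0.34 when its 2 probe sets on this design were averaged. Sox10 differed by -0.09, Tyr by -0.04 and Dct by -0.06. In all, 9 of the 10 genes had the same sign in the Res 177 tumours of both designs, Mlana being the exception. Over the 15034 genes on both designs 61.1% did. Some of the first-design differences lay near 0: 0.01 for Tyrp1, -0.02 for Dct, -0.03 for Tyr and -0.005 for Mlana. Over 21 other settings the first-design sign turned in 3 for Tyr, 1 for Dct and 4 for Mlana.

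The Res 177 tumours carried skin transcripts. All 9 measured keratinocyte and hair follicle markers of a list of 10 rose in the Res 177 tumour of the first design, with a median difference of 3.01, and their mean level was 8.01 in the Res 177 tumour, from 5.12 to 5.32 in Res 499 and from 5.13 to 5.34 in control tumours. On the second design all 10 genes of the list were measured, and their mean was 7.40 in the Res 177 tumour and 5.97 in the control tumour. Hair follicles of C57BL/6 mice hold pigment cells of their own, and the part of this skin signal in the Gpr143 and Oca2 values of Res 177 was not tested. In the 7 Res 499 tumours the skin markers had a median difference of 0.04. Of these 9 markers 0 had an unadjusted p under 0.05 by limma, against 13% of all genes.

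Within groups, no slope of the 10 genes on the leukocyte index passed limma's test. In a fit of the 3 groups with the leukocyte index as a slope, none of the 10 passed (smallest adjusted p = 0.65; 0 of 10 at an unadjusted p under 0.05, against 9.6% of all genes), where 432 of 16630 genes (2.6%) did. Of all genes 2.51% rose with the index, among them all 7 macrophage markers, 6 of 7 fibroblast markers and 2 of 6 endothelial markers. The index thus went with markers of other host cells too. Positive slopes were seen for 4 of the 10 and for 43.5% of all genes. Per log2 unit of the index, Slc45a2 changed by -0.10 (SE 0.05, adjusted p = 0.65), Gpr143 by -0.09 (SE 0.14), Oca2 by -0.21 (SE 0.22) and Sox10 by 0.07 (SE 0.07). With the index as a covariate, the Res 499 difference from control was -0.32 (SE 0.10) for Sox10, 0.30 (SE 0.08) for Slc45a2, 0.60 (SE 0.33) for Oca2 and 0.60 (SE 0.22) for Gpr143. None passed in that fit either (smallest adjusted p = 0.176), where 27 genes (0.162%) did. Here 7 of the 10 had positive differences, against 53.5% of all genes, and 4 an unadjusted p under 0.05, against 11.4%. In the same fit Pmel stood at 0.20, Mlana at 0.13, Tyrp1 at 0.04 and Dct at -0.04, and Mitf (-0.02) and Tyr (0.01) changed sign.

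**Figure D3:**
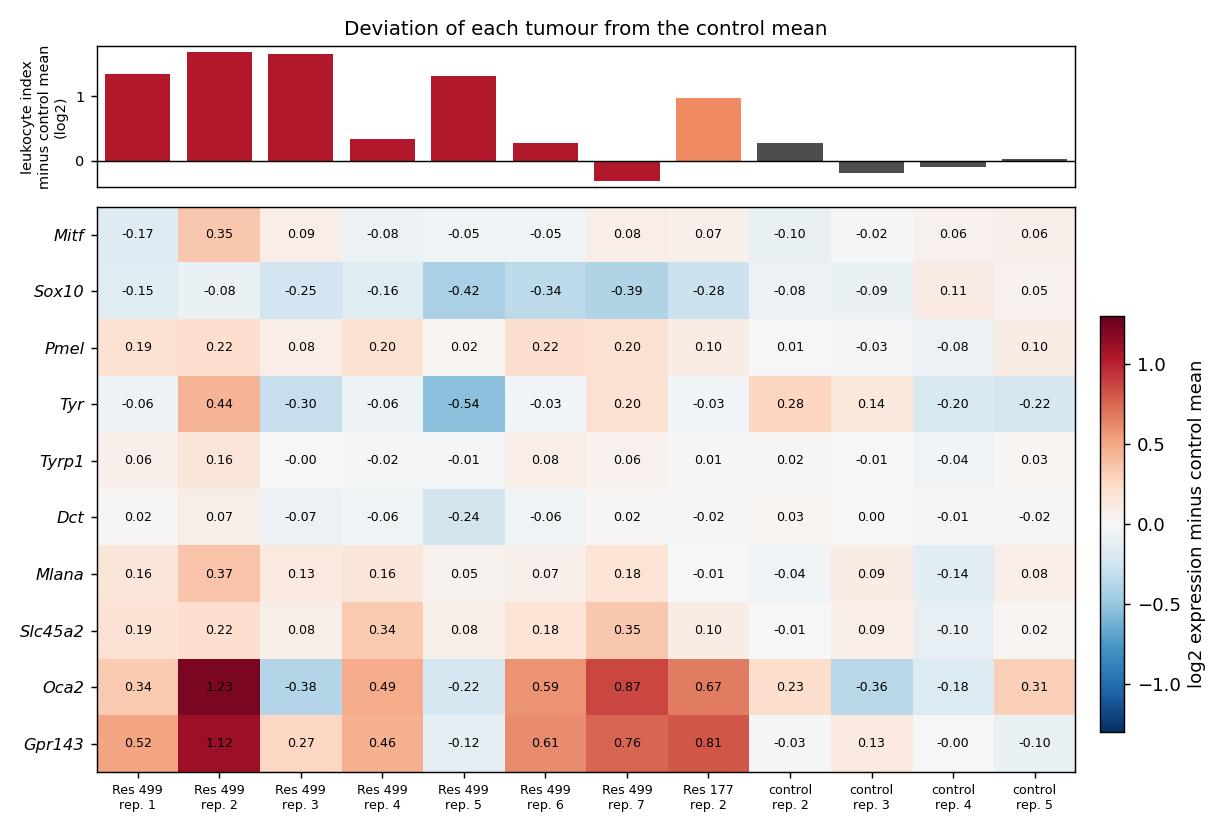
Bars give the leukocyte index of each tumour of the first design minus the control mean (log2). The grid gives the log2 expression of each of the 10 genes minus its control mean, with 7 Res 499, 1 Res 177 and 4 control tumours from left to right; red is above and blue below the control mean. Res 499 replicate 2 is red for 9 of 10 genes and replicate 5 is blue for 7 of 10, and both have high leukocyte bars.

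The Res 499 tumours differed among themselves in the level of the whole set. Replicate 2 had the highest value of the 7 Res 499 tumours for 8 of the 10 genes, and its mean over the 10 genes was 0.41 above the control mean. Replicate 5 had the lowest value for 7 of the 10, and its mean was 0.15 below the control mean. The leukocyte indices of these tumours were 8.23 and 7.86, both above every control tumour. Replicate 7 had the lowest leukocyte index of all 12 tumours, 6.23, and a mean of 0.23 over the 10 genes, with 9 of 10 above the control mean. For 9 of the 10 genes the SD was higher in Res 499 than in control tumours, as it was for 60.2% of all genes tested; Mlana was the exception, and the ratio was 4.08 for Gpr143 and 4.93 for Dct.

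The pigment genes varied together from tumour to tumour, with coefficients whose median was higher among themselves than with Mitf or Sox10. As a description, deviations from group means were correlated over the 11 tumours of Res 499 and control, which share their array normalization and their host cells. Among them are Res 499 replicate 2, highest of its group for 8 of the 10 genes, and replicate 5, lowest for 7. The weight of these replicates in the coefficients was not tested. Among the 8 genes other than Mitf and Sox10, all 28 pairs had positive coefficients, with a median of 0.67, a lowest value of 0.22, between Tyrp1 and Slc45a2, and a highest of 0.91, between Dct and Gpr143. Tyr and Gpr143 stood at 0.89, Tyr and Dct at 0.86 and Pmel and Oca2 at 0.82. These are pairs of an enzyme, a receptor, a fibril protein and a channel of one organelle, and a shared control of them was not tested. The share of positive coefficients over all gene pairs was not computed. By likeness to Tyr, Pmel (0.58) ranked at 1188 of 16634 genes, so many other genes had higher coefficients with Tyr. Mitf had a median of 0.39 with the same 8 genes (from -0.0026 with Slc45a2 to 0.60 with Mlana), and Sox10 a median of 0.33 (from -0.01 with Slc45a2 to 0.50 with Dct). The ranges overlap: Mitf stood at 0.56 with Gpr143 and 0.52 with Tyrp1, above some pairs of the 8.

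Ranked among all 16634 other genes by likeness to Tyr, Gpr143 came at 18 and Dct at 42. Oca2 followed at 293, Tyrp1 at 416, Mlana at 884, Slc45a2 at 1127 and Pmel at 1188, while Mitf came at 3104 and Sox10 at 5004. The 3 genes outside the 10 that were most like Tyr were Rarb (0.93), which encodes a retinoic acid receptor, Mir186 (0.93) and Cpeb3 (0.93). For Mitf they were A230056P14Rik (0.96), 5830444B04Rik (0.93) and Invs (0.90), and the best placed of the 10 was Mlana at rank 579. For Sox10 they were Bcl9 (0.97), Bmp2k (0.94) and Helz2 (0.94), and the best placed was Dct at rank 2148. With 11 tumours, high coefficients arise for many genes, and these names are given only as the nearest patterns.

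**Figure D4:**
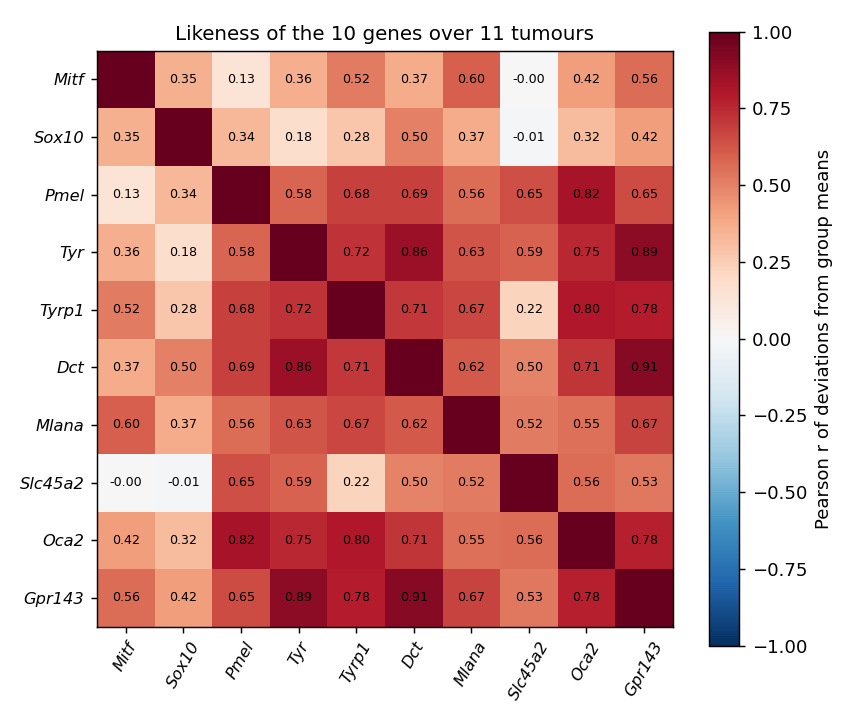
Pearson coefficient between each pair of the 10 genes, computed on deviations from group means over 7 Res 499 and 4 control tumours of the first design; red is positive and blue negative. The 8 pigment genes form a block with positive values throughout (median 0.67), while the rows of Mitf and Sox10 are paler (medians 0.39 and 0.33).

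Beyond the 10 genes, 1 gene that builds or moves melanosomes passed the test in Res 499. Of 18 genes of melanosome biogenesis and transport 17 were tested and 13 had positive differences (51.7% of all genes did), with a median of 0.08. Of these 17, 1 rose (0.144% of all genes did) and 0 fell. Rab38, the small GTPase that delivers tyrosinase and Tyrp1 to melanosomes and is lost in the chocolate mouse, was the one that rose. It had a lowest value of 11.51, a median of 11.74 and a highest value of 11.87 in Res 499 tumours, 11.61 in the Res 177 tumour, and 11.32, 11.35, 11.13 and 11.20 in control tumours. All 7 Res 499 tumours lay above the controls, with a 1.37-fold rise (log2 0.45, SE 0.08, adjusted p = 0.0435). The call was lost on leaving out single tumours: the adjusted p was 0.184 without control replicate 4, 0.0936, 0.0755 and 0.0666 without control replicates 2, 3 and 5, and from 0.0507 to 0.0882 without Res 499 replicate 1, 3, 4, 6 or 7, while the difference with 1 tumour left out stayed between 0.41 and 0.49. On the second design Rab38 was at 12.20 in the Res 177 tumour and 11.81 in the control tumour.

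In this list 4 of 17 genes had group ranges that did not overlap, where 2.39% of all genes did. The 4 were Rab38, Rab32, Mlph and Mreg, of which the last 3, like Rab27a, are named after their values were seen. Such genes numbered 1 of 12 lineage regulators, 1 of 14 Mitf targets outside pigment synthesis and 0 of 9 genes of the undifferentiated melanoma state. The lists were chosen with earlier results of these data known, so these shares are no independent support. Rab32 is the close relative of Rab38 in the same sorting step, Mlph (melanophilin) links Rab27a on the melanosome to the motor Myo5a, and Mreg is the dilute suppressor gene of the mouse, which affects melanosome distribution. Mreg differed by 0.50 (SE 0.12, adjusted p = 0.0878), Mlph by 0.40 (SE 0.09, adjusted p = 0.077), Rab32 by 0.40 (SE 0.11, adjusted p = 0.148) and Rab27a by 0.44 (SE 0.14, adjusted p = 0.198). On the second design Rab32 was at 10.66 in the Res 177 tumour and 9.34 in the control tumour, without a test. The motor Myo5a itself differed by 0.06 (SE 0.17). The sorting complex genes Ap3b1, Bloc1s3, Dtnbp1, Hps1, Hps3, Hps4, Hps5 and Hps6 lay between -0.10 (Bloc1s3) and 0.30 (Hps3).

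In the list of lineage regulators 12 of 13 were tested, 6 had positive differences (51.7% of all genes did), the median was 0.0033 and 0 passed. The signalling genes upstream of Mitf showed small differences: the melanocortin receptor Mc1r 0.01 (SE 0.10), the receptor Kit -0.05 (SE 0.21), the endothelin receptor Ednrb 0.11 (SE 0.20) and the factor Pax3 0.10 (SE 0.10). The genes with the highest and lowest differences were Irf4 and Tfec, and Tfe3 (-0.12) and Tfap2a (-0.11). Irf4, a factor of lymphocytes that in melanocytes acts with Mitf on the Tyr gene, had a lowest value of 5.50, a median of 6.68 and a highest value of 6.96 in Res 499 tumours, 5.63 in the Res 177 tumour, and from 5.03 to 5.29 in control tumours. The control values, the Res 177 value and the lowest Res 499 value lay below the array medians, which ran from 5.70 to 5.80. The difference is thus measured from a dim signal. All 7 Res 499 tumours lay above the controls, a 2.34-fold difference (log2 1.23, SE 0.26) that missed the threshold (adjusted p = 0.0696). It crossed it with array weights (1.38, adjusted p = 0.00864), without Res 499 replicate 2 (1.38, adjusted p = 0.0124) and without replicate 5 (1.34, adjusted p = 0.0404). Its slope on the leukocyte index was -0.34 (SE 0.19, adjusted p = 0.69), and with the index as a covariate its difference was 1.53. Tfec, an Mitf relative of macrophages, differed by 0.75 (SE 0.30, adjusted p = 0.304), rose with the leukocyte index by 0.76 per unit (SE 0.11, adjusted p = 0.00148), and differed by 0.07 with the index as a covariate. Its control values ran from 4.91 to 5.48, below the array medians, so its difference too is measured from a dim signal.

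Of 16 known Mitf targets outside pigment synthesis 14 were tested and 11 had positive differences (51.7% of all genes did), with a median of 0.10. Of these 14, 1 rose (0.144% of all genes did) and 0 fell. The one that rose was Cdk2, a cell cycle kinase that is a known MITF target in human melanoma cells. It had a lowest value of 12.15, a median of 12.34 and a highest value of 12.51 in Res 499 tumours, 12.09 in the Res 177 tumour, and 11.73, 11.94, 11.89 and 11.97 in control tumours. All 7 Res 499 tumours lay above the controls, with a 1.37-fold rise (log2 0.45, SE 0.08, adjusted p = 0.0435). The adjusted p was 0.163 without control replicate 4, and 0.117 and 0.084 without control replicates 2 and 3. It ran from 0.053 to 0.0882 without Res 499 replicate 1, 3, 4, 6 or 7. Cdk2 is the neighbour of Pmel: its annotated span (chr10:128697938-128705051, GRCm38.p6) lies inside that of Pmel (chr10:128695888-128720238), so they share 7114 bases, and whether their probe sets share signal was not tested. Outside the call, 4 other genes of the list had an unadjusted p under 0.05 (13% of all genes did) and are named after their values were seen: Ctsk at 0.96 (SE 0.32, adjusted p = 0.224), the melanocyte channel gene Trpm1 at 0.81 (SE 0.28, adjusted p = 0.239), Ppargc1a at 0.54 (SE 0.18, adjusted p = 0.229) and, lower in Res 499, Hif1a at -0.22 (SE 0.10, adjusted p = 0.383). In control replicates 3 and 4 Trpm1 was dim, at 5.63 and 5.71, close to the array medians.

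Genes of the undifferentiated melanoma state, in which the pigment programme is typically low, showed no call either. Of 10 genes 9 were tested, 7 had positive differences (51.7% of all genes did) with a median of 0.17 and 0 passed. With the leukocyte index as a covariate 3 of 9 were positive (53.5% of all genes were) and the median was -0.04. Axl, a receptor kinase that macrophages and fibroblasts also express, differed by 0.65 (SE 0.40, adjusted p = 0.533) and by -0.04 with the leukocyte index as a covariate. Sox9 differed by 0.52 (SE 0.22, adjusted p = 0.347), and by 0.68 without Res 499 replicate 5 (adjusted p = 0.0322). At the low end stood Tead4 at -0.13 and Ngfr at -0.04.

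**Figure D5:**
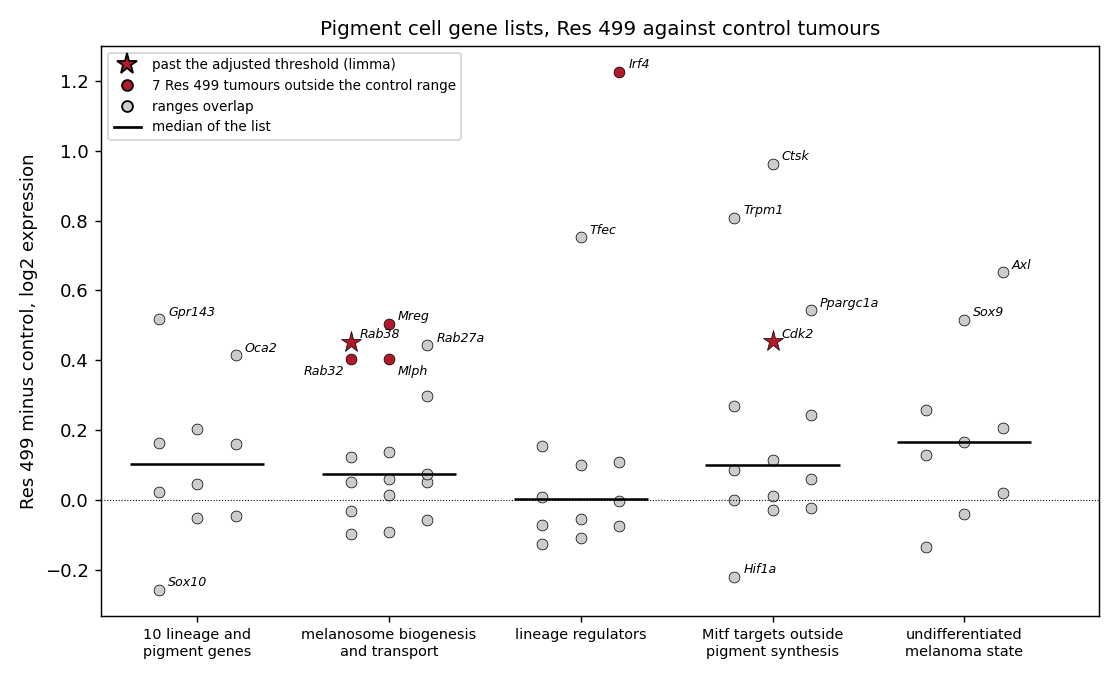
Res 499 minus control difference in log2 expression for each gene of the 10 and of 4 related lists. Stars are genes past the adjusted threshold by limma, red points are genes for which all 7 Res 499 tumours lie outside the range of the 4 control tumours, grey points are the rest, and bars are list medians. Rab38 and Cdk2 (both 0.45) are the stars, and Irf4 stands highest at 1.23 without passing.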

How the data were processed

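The authors deposited log2 expression, with 1 value for each probe set on each array, computed by RMA (oligo), per the submitters' processing notes; their versions, the genome build and the probe annotation were not given in those notes, and the log2 scale was read from the range of values. RMA corrects background and quantile-normalizes arrays; the 2 designs were separate, so levels were never compared between them. Arrays carry no depth, and the number of tumours limits precision. Of 41345 probe sets on the first design 23521 had 1 gene symbol, 1814 several and 16010 none. Genes were represented by their brightest probe set; the lowest 25% by mean (5545 genes) were left out.

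Groups came from the subline label, and replicate numbers, given in deposit order, name tumours only (control replicates 2 to 5 and Res 177 replicate 2 are on the first design). Whether each tumour had a mouse of its own is not stated, and the p-values then reflect only how these tumours vary, which may be technical. Tests used lmFit and eBayes of limma 3.58.1 (R 4.3.3), Benjamini-Hochberg adjustment over all genes and a threshold of 0.05, checked on simulated data. Members and lists were chosen with earlier results of these data known, and the motif TGACGTCA after the sequences were seen. The naming rule covered the 10 genes, called members of each list or else its 2 highest and 2 lowest, and the 3 genes most like Mitf, Sox10 and Tyr. Other list and marker genes in the text, such as Rab32, Myo5a, the sorting complex genes, Mc1r, Ctsk and Pmp22, are named outside this rule. Their values were known when they were named. Alternatives covered filters, probe sets, normalization, prior, array weights, leukocyte covariate, groups fitted and each array left out.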

Additional observations from a re-analysis of the deposited data

Results flagged for a closer look

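In 50 gene and group combinations checked for a tumour far from the rest of its group, 2 stood out, where chance gives about 1 in 20. Mlana in Res 499 replicate 2 was at 13.14, against 12.95 in the next highest Res 499 tumour, and this tumour was highest for 8 of the 10 genes. Sox9 in Res 499 replicate 5 was at 6.76, against 7.70 in the next lowest, and this tumour was lowest for 7 of the 10.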

How the results depend on the processing

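Of the 10 genes, none passed in the Res 499 comparison under 22 other settings, in the Res 177 comparison under 21 or in the leukocyte slope under 15, and Gpr143 was the 1 that passed in the pooled comparison, with array weights and without Res 499 replicate 5 (0 to 1 genes over the arrays left out). Counts over all genes moved more. The Res 499 count of 59 became 39 with arrays re-centred, 356 with array weights, 27 with the leukocyte index and 6 to 196 with 1 array left out. The Res 177 count of 35 became 101 with no filter and 2 with the lowest 50% left out. The pooled count of 102 became 64 re-centred, 330 with array weights, 37 with the leukocyte index, 42 with sublines weighted equally and 9 to 141 with 1 array left out. The slope count of 432 ran from 242 to 598 with 1 array left out. Signs turned as follows. With the leukocyte index, Res 499 minus control was -0.021 for Mitf, 0.0085 for Tyr, 0.027 for Tfap2a and -0.043 for Axl. In the same setting the pooled difference was -0.016 for Mitf and 0.011 for Tyr, and the Res 177 difference 0.032 for Tyr. With 1 array left out, Res 499 differences ran from -0.030 to 0.055 for Mitf, -0.13 to 0.044 for Tyr, -0.24 to 0.038 for Tead4 and -0.066 to 0.0090 for Ngfr, pooled ones from -0.016 to 0.057 for Mitf and -0.12 to 0.046 for Tyr, and Res 177 ones from -0.11 to 0.061 for Tyr and -0.050 to 0.026 for Mlana. After a further quantile normalization the Res 177 difference was 0.010 for Dct and 0.0096 for Mlana, and with array weights it was 0.027 for Mlana. Rab38 lost its call in 9 of 22 settings and Cdk2 in 8 of 22, both with the same sign throughout. Mlph (0.41, adjusted p = 0.0393) and Mreg (0.54, adjusted p = 0.0392) passed with array weights. The cause of these changes was not tested. No paired analysis was possible because the labels carry no replicate numbers. The 4 control arrays and the single Res 177 array per design limit what could be detected, and no scanner files were used, so signal over background was not analysed here.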
